A study of Ursus arctos with 12 samples.

Results

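The genes described here encode the matrix metalloproteinases (MMP), the tissue inhibitors of metalloproteinases (TIMP), the membrane proteases of the ADAM family, the secreted ADAMTS proteases and the ADAMTS-like (ADAMTSL) proteins. Members were taken by symbol, as MMP, TIMP, ADAM, ADAMTS or ADAMTSL followed by a digit, and had to reach 30 reads summed over all libraries. This gave 55 members among 17290 genes that passed the same read limit, namely 16 MMP, 4 TIMP, 12 ADAM, 18 ADAMTS and 5 ADAMTSL genes. Another 10 matching symbols stayed under 30 reads, of which 6 (ADAM2, ADAM7, ADAM29, ADAM30, MMP7 and MMP20) had 0 reads in all 12 libraries. The members just inside the limit were ADAM32 with 39 reads and MMP13 with 46 reads, and those just outside were ADAM18 with 22 and MMP17 with 13.

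The data were mRNA read counts from biopsies of the vastus lateralis, a thigh muscle, of free-ranging brown bears (Ursus arctos) aged 2 to 3 years. The same 6 bears gave a biopsy in winter, during hibernation, and another in summer, when active, so each season held 6 libraries, each from 1 bear. In each bear the winter capture came first in the year, so season and order of sampling cannot be told apart. No treatment or genetic change was applied to either group.

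MMPs and ADAMTS proteases are zinc enzymes that cut collagens, proteoglycans and other proteins of the extracellular matrix, the protein mesh around muscle fibres. ADAMs sit in the cell membrane and release the outer domains of growth factors, cytokines and Notch ligands, a process called shedding. TIMPs bind the active site of these enzymes and block it, and each enzyme is made as an inactive precursor, so that transcript level and enzyme activity are separate quantities.

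Libraries held between 16742406 and 32140160 counted reads. CPM are reads scaled to the total of the library after that total was multiplied by its TMM normalisation factor. The muscle fibre markers were ACTA1, CKM, MB, DES, TTN, NEB, TNNT1 and TNNT3. Their sum was 112752 to 188326 CPM in summer and 121144 to 160119 CPM in winter. The labelled tissue thus showed its defining transcripts in both seasons. The winter library of bear 1509 stood apart from the rest in a principal component analysis, at −98.6 on the second component against 6.35 to 23.1 for the other winter libraries. In bulk muscle, fewer cells of a type and less RNA per cell cannot be told apart in any of the results that follow.

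Of the 55 members, 25 were lower and 7 were higher in winter compared to summer, and 23 did not pass the test. The test was edgeR's quasi-likelihood test on paired libraries, with a Benjamini-Hochberg adjusted p below 0.05 over all genes. MMP23B, ADAMTS16 and ADAMTS18, all called lower, reached the limit of 30 reads only through their summer libraries. The filter thus favoured a fall in these genes, and the counts below include them. Across all genes tested 40.8% were called, 19.6% as higher and 21.2% as lower, against 12.7% higher and 45.5% lower among the members. The median log2 fold change (log2FC, winter minus summer) was −0.28 over the members and −0.01 over all genes. Leaving out each bear in turn gave a larger fall of the members' median, from −0.36 without bear 1305 to −0.43 without bear 1512. Within single bears the members' median lay between −0.79 and −0.29. Of the 25 members called lower, 20 were lower in 6 of 6 bears, and of the 7 called higher, 4 were higher in 6 of 6 bears. These counts add nothing to the calls, since a paired test favours genes that move alike in all bears. The same share among all called genes was not counted. All 6 winter libraries lay below all 6 summer libraries for 15 members, against 8.21% of all genes, and above them for 2 members (MMP24 and ADAMTS3), against 9.12% of all genes. Without bear 1509 the counts were 26 lower and 8 higher, and without bear 1511 they were 26 and 6.

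**Figure D1:**
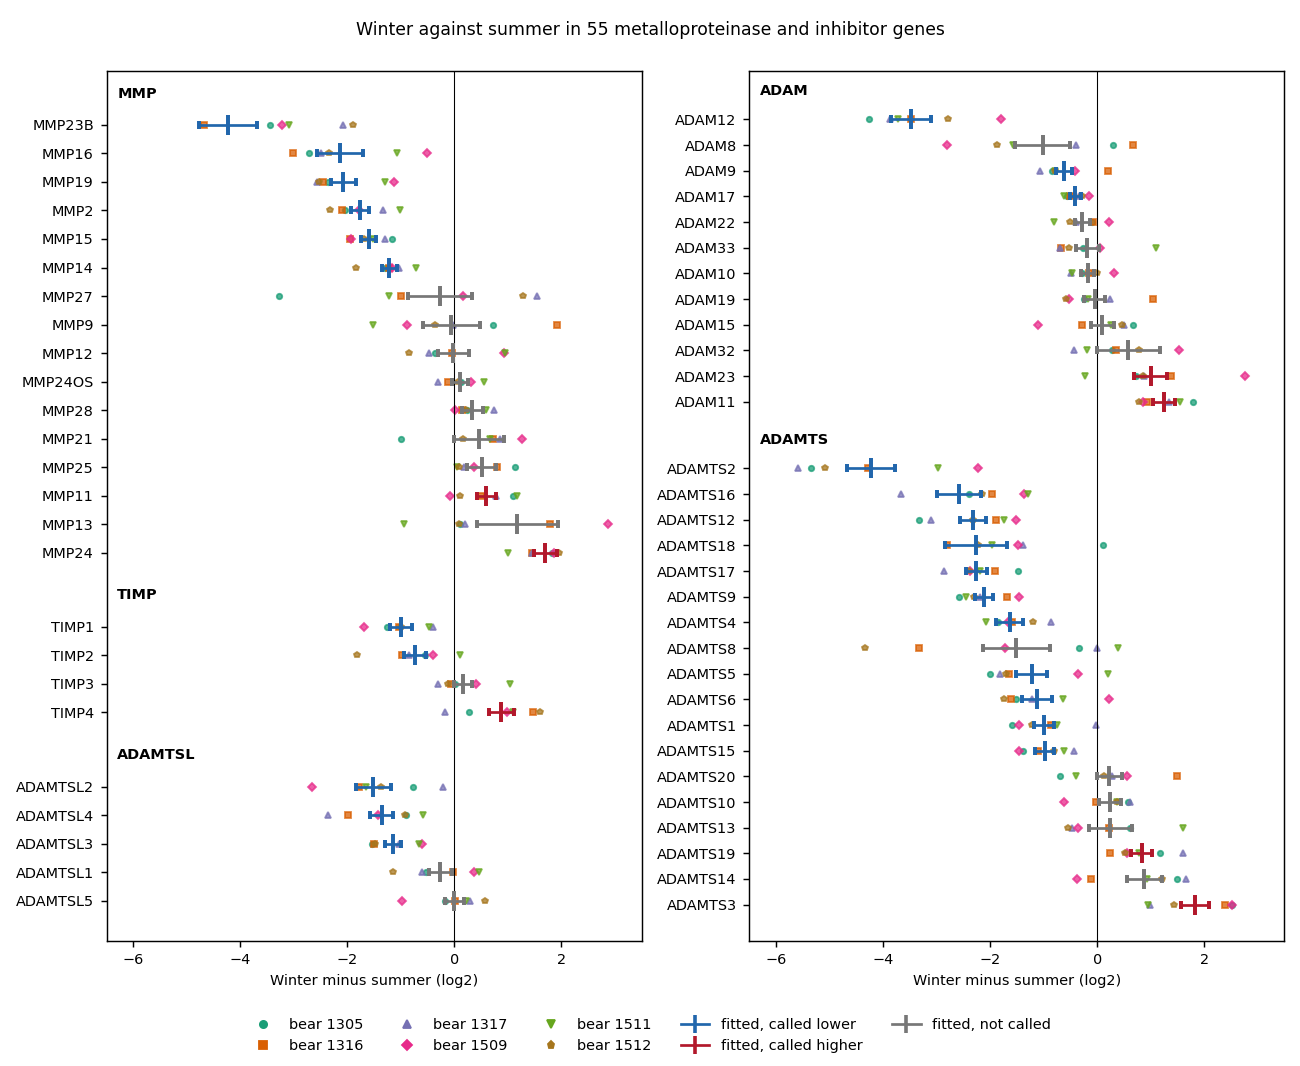
Winter minus summer on the log2 scale for the 55 members, grouped by family; small symbols are single bears (log2 CPM difference), and bars are the fitted log2 fold change with its standard error, in blue for called lower, red for called higher and grey for not called. ADAMTS and ADAMTSL genes lie mostly to the left of 0, with ADAMTS2 at −4.22 and ADAMTS3 at 1.83 as the ends of the ADAMTS family.

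By family, the counts can be read against the 21.2% lower and 19.6% higher over all genes. In the MMP family 6 of 16 fell and 2 rose (median log2FC −0.03), in the TIMP family 2 of 4 fell and 1 rose (median −0.29), and in the ADAM family 3 of 12 fell and 2 rose (median −0.18), a share lower near that of all genes. ADAMTS genes showed 11 of 18 lower and 2 higher (median −1.17). Among ADAMTSL genes 3 of 5 were lower (median −1.14) and 0 were higher, with edgeR, DESeq2 and limma voom and also at an unadjusted p below 0.05. The difference between families was not tested.

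Summed over a family, MMP reads made up 140 to 216 CPM in summer and 49.0 to 128 CPM in winter, without overlap. The ADAMTS sum went from 221 to 354 CPM in summer to 61.9 to 158 CPM in winter, again without overlap. ADAMTSL sums overlapped slightly, from 111 to 193 CPM in summer and 60.6 to 119 CPM in winter. TIMP sums overlapped widely, with 241 to 420 CPM in summer and 216 to 548 CPM in winter, the highest being the winter library of bear 1511. ADAM sums overlapped as well, at 171 to 236 CPM and 156 to 194 CPM. These sums weigh genes by reads and hence by transcript length. MMP2 alone held 53.9% of MMP reads in summer and 37.4% in winter, while ADAMTS2 held 30.3% of ADAMTS reads in summer and 5.18% in winter.

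**Figure D2:**
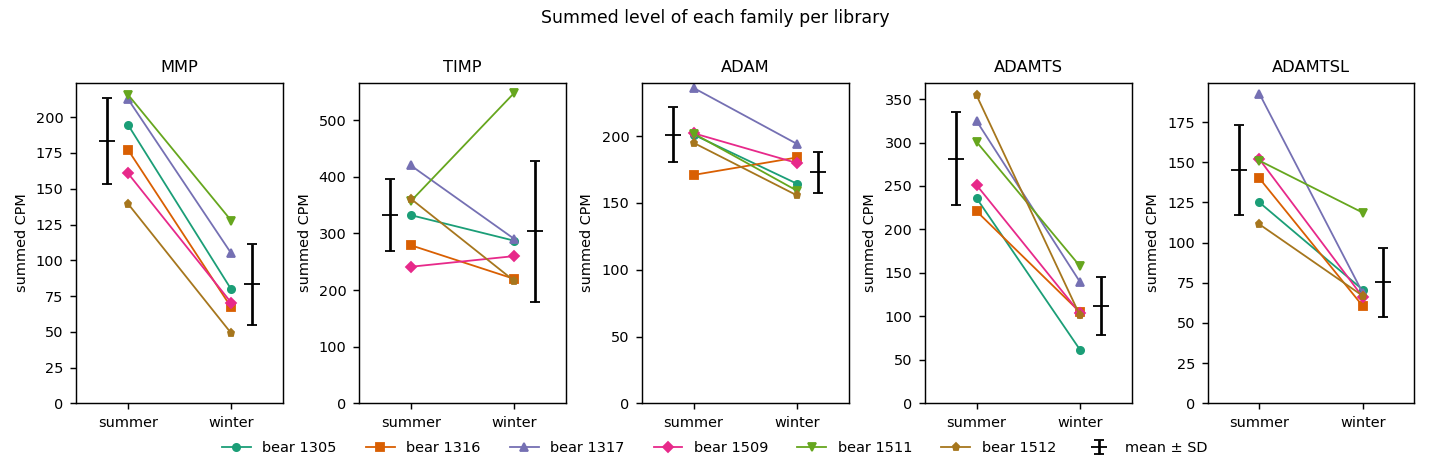
Summed CPM of each family per library in summer and winter, with a line for each bear and the mean ± SD of 6 libraries beside each season. MMP and ADAMTS sums do not overlap between the seasons (MMP 140 to 216 against 49.0 to 128 CPM), whereas TIMP sums do.

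The secreted gelatinases MMP2 and MMP9 digest denatured collagen and basement membrane collagen. MMP2 ranged from 6.18 to 6.97 log2 CPM in summer (median 6.63) and from 3.85 to 5.96 log2 CPM in winter (median 4.61). Every winter library was below every summer library, and the level fell in 6 of 6 bears, with a log2FC of −1.76 ± 0.17 (SE; fold change (FC) = 0.294, adjusted p = 5.17e-05). Bears 1511 and 1317 kept the highest winter levels, at 5.96 and 5.54 log2 CPM. MMP9, a gelatinase best known from neutrophils, had 1 to 17 reads a library in summer and 3 to 19 in winter, too few for a firm statement (log2FC −0.05, adjusted p = 0.946). MMP13, the member of the secreted collagenases that passed the read limit, had 0 to 4 reads in summer and 0 to 13 in winter (adjusted p = 0.237).

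Membrane-type MMPs are anchored at the cell surface, where MMP14 activates the MMP2 precursor together with TIMP2. MMP14 showed summer levels of 4.29 to 5.08 log2 CPM (median 4.86) and winter levels of 2.46 to 4.33 (median 3.61). The ranges touched, since the winter library of bear 1511 was above the summer library of bear 1512, but all 6 bears fell (log2FC −1.21 ± 0.14, FC = 0.431, adjusted p = 1.20e-04). MMP15, a relative of MMP14, was among the least variable members in summer, with 4.30 to 4.48 log2 CPM (median 4.37), and had 2.42 to 3.13 in winter (median 2.78). Its seasons were clearly separate (log2FC −1.60 ± 0.14, FC = 0.329, adjusted p = 2.77e-05). MMP16 had 20 to 53 reads a library in summer and 1 to 23 in winter, and fell in 6 of 6 bears (log2FC −2.13 ± 0.43, adjusted p = 0.00292).

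MMP24, another membrane-type enzyme described mainly in nervous tissue, moved the other way. It measured −0.81 to 0.24 log2 CPM in summer (median −0.31) and 0.61 to 2.06 in winter (median 1.3), from 11 to 30 reads a library in summer and 24 to 100 in winter. All winter libraries were above all summer libraries, with a log2FC of 1.70 ± 0.22 (FC = 3.26, adjusted p = 2.25e-04). The gene on the opposite strand, MMP24OS, which carries the symbol but encodes no metalloproteinase, had 126 to 179 reads in summer and 112 to 172 in winter (log2FC 0.11, adjusted p = 0.597), and counting used the strand. MMP25, the membrane-type member left, did not pass (log2FC 0.51, adjusted p = 0.167).

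Among the remaining MMPs, MMP19 fell and MMP11 rose. MMP19, an enzyme that digests basement membrane proteins, went from 2.71 to 4.19 log2 CPM in summer (median 3.68) to 0.17 to 2.55 in winter (median 1.47). These ranges did not overlap (log2FC −2.08 ± 0.23, FC = 0.237, adjusted p = 1.05e-04). MMP11, also called stromelysin 3 and unusual in being activated inside the cell by furin, measured 2.46 to 3.24 log2 CPM in summer (median 2.94) and 2.97 to 3.81 in winter (median 3.54). Its ranges overlapped and bear 1509 did not share the rise (log2FC 0.60 ± 0.18, FC = 1.51, adjusted p = 0.0236). The call was lost without bear 1305 (adjusted p = 0.0885), 1317 (0.0645) or 1511 (0.0737). MMP23B, a small transmembrane-precursor MMP, had 6 to 55 reads a library in summer and 0 to 3 in winter (log2FC −4.23 ± 0.54, adjusted p = 2.00e-04), and with so few winter reads the size of its fall is loosely set. MMP12, MMP21, MMP27 and MMP28 did not pass, with log2FC from −0.26 to 0.46.

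The 4 inhibitors did not move together. TIMP1, a secreted inhibitor with weak action on the membrane-type MMPs, ranged from 1.40 to 2.72 log2 CPM in summer (median 2.26) and from 0.41 to 2.26 in winter (median 1.18). The ranges overlapped while each bear fell (log2FC −0.99 ± 0.21, FC = 0.504, adjusted p = 0.00342). TIMP2, the partner of MMP14 in MMP2 activation, lay at 6.71 to 7.66 log2 CPM in summer (median 7.35) and 5.84 to 7.60 in winter (median 6.49). It fell in 5 of 6 bears, with bear 1511 the exception (log2FC −0.74 ± 0.21, FC = 0.598, adjusted p = 0.0146). Without the replicate block its adjusted p was 0.0657.

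TIMP3, which binds to the matrix and also inhibits ADAM17 and ADAMTS enzymes, showed 6.97 to 7.66 log2 CPM in summer (median 7.28) and 7.08 to 8.36 in winter (median 7.37). The bears were evenly divided, 3 higher and 3 lower, and no change was detected (log2FC 0.16 ± 0.16, adjusted p = 0.459). Bear 1511 held the highest winter value, and without it the log2FC was −0.01. TIMP4, an inhibitor abundant in heart and skeletal muscle, measured 2.57 to 3.72 log2 CPM in summer (median 2.90) and 3.32 to 4.44 in winter (median 3.92). It rose in 5 of 6 bears, bear 1317 being the exception, and the ranges overlapped (log2FC 0.88 ± 0.23, FC = 1.84, adjusted p = 0.00994).

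**Figure D3:**
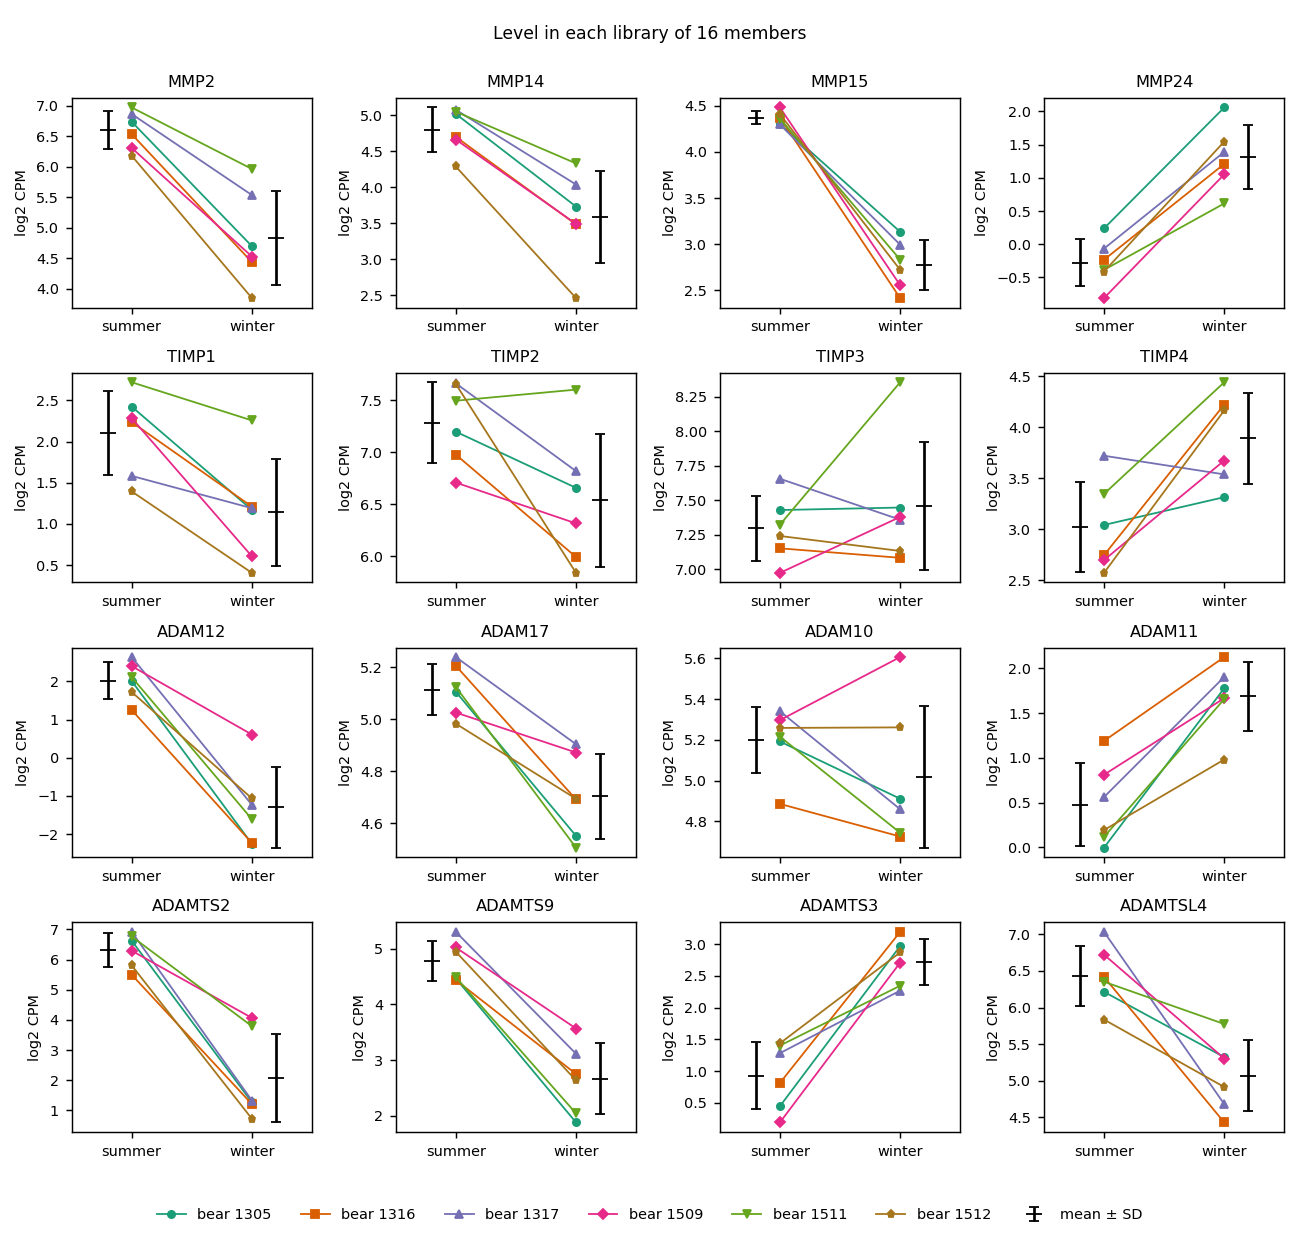
Level (log2 CPM, own scale in each panel) of 16 members in each library, with a line for each bear and the mean ± SD of 6 libraries beside each season. MMP2, MMP15, ADAM12, ADAMTS2 and ADAMTS9 are lower in winter without overlap, MMP24 and ADAMTS3 are higher without overlap, and TIMP3 and ADAM10 are mixed between bears.

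Of the ADAMs with a complete zinc-binding motif, 3 of 8 were lower and 0 were higher, the latter also with DESeq2, limma voom and an unadjusted p below 0.05. Over all genes 21.2% were lower and 19.6% higher, so 0 higher among 8 genes says little. ADAM12, an ADAM of developing and regenerating muscle and of fibroblasts, had 1.25 to 2.63 log2 CPM in summer (median 2.06) and −2.26 to 0.61 in winter (median −1.42). No winter library reached the summer range, and bear 1509 had the highest winter level (log2FC −3.47 ± 0.37, FC = 0.0900, adjusted p = 8.57e-05). ADAM17, the sheddase of tumour necrosis factor and of ligands of the epidermal growth factor receptor, was at 4.98 to 5.24 log2 CPM in summer (median 5.12) and 4.51 to 4.90 in winter (median 4.69). The seasons were separate, but the difference was small (log2FC −0.41 ± 0.10, FC = 0.751, adjusted p = 0.00876).

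ADAM9, a widely expressed sheddase, went from 4.30 to 5.55 log2 CPM in summer (median 5.28) to 4.35 to 4.86 in winter (median 4.51). Bear 1316, whose summer level was the lowest, was the exception to the fall (log2FC −0.62 ± 0.16, FC = 0.651, adjusted p = 0.00923). ADAM10, the main sheddase of Notch receptors, ranged from 4.89 to 5.34 log2 CPM in summer (median 5.24) and from 4.73 to 5.61 in winter (median 4.89). Its level was lower in 4 bears and higher in 2, and did not pass (log2FC −0.18 ± 0.12, adjusted p = 0.267). ADAM19, a sheddase of neuregulins and the ADAM with most reads, lay at 4.85 to 5.53 log2 CPM in summer (median 5.20) and 4.66 to 5.92 in winter (median 4.80). Bears 1316 and 1317 were higher and the other 4 lower in winter, and no change was detected (log2FC −0.05 ± 0.19, adjusted p = 0.866). ADAM8, ADAM15 and ADAM33 did not pass either, with log2FC of −1.02, 0.10 and −0.18.

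ADAMs that lack the zinc motif cut no protein and act in adhesion, several of them as receptors of the LGI proteins at synapses. Of 4 measured, 2 were higher and 0 lower, the latter also with DESeq2, limma voom and an unadjusted p below 0.05. With 19.6% of all genes higher and 21.2% lower, counts among 4 genes say little about the group. ADAM11 measured −0.00 to 1.19 log2 CPM in summer (median 0.38) and 0.98 to 2.13 in winter (median 1.72). All 6 bears rose, with a slight overlap of the ranges (log2FC 1.25 ± 0.21, FC = 2.39, adjusted p = 9.93e-04). ADAM23 had −1.34 to 1.92 log2 CPM in summer (median 1.39) and 1.42 to 2.79 in winter (median 1.84). The summer range was wide and bear 1511 did not rise (log2FC 1.00 ± 0.31, FC = 2.00, adjusted p = 0.0257). This call was lost without the replicate block (adjusted p = 0.132) and without bear 1305 (0.0518), 1316 (0.0677), 1317 (0.0546) or 1512 (0.0571). ADAM22 did not pass (log2FC −0.28, adjusted p = 0.136; 0.0440 without bear 1509), nor did ADAM32.

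ADAMTS2, ADAMTS3 and ADAMTS14 remove the N-terminal propeptide of fibrillar procollagens, a step towards fibril assembly. ADAMTS2, the enzyme for procollagens I to III, ranged from 5.50 to 6.92 log2 CPM in summer (median 6.46) and from 0.72 to 4.07 in winter (median 1.3). In reads this was 947 to 2788 a library in summer and 43 to 302 in winter, a fall in all 6 bears without overlap (log2FC −4.22 ± 0.45, FC = 0.0535, adjusted p = 8.38e-05). Bears 1509 and 1511, at 4.07 and 3.79 log2 CPM, stood above the other 4 winter libraries, which lay between 0.72 and 1.33. ADAMTS3, which acts on procollagen II and on the lymphatic growth factor VEGF-C, had 0.19 to 1.44 log2 CPM in summer (median 1.05) and 2.27 to 3.20 in winter (median 2.79). It was higher in winter without overlap (log2FC 1.83 ± 0.27, FC = 3.55, adjusted p = 4.59e-04). ADAMTS14 had 14 to 35 reads in summer and 19 to 76 in winter and did not pass (log2FC 0.88, adjusted p = 0.0532), with adjusted p from 0.0118 to 0.170 over the other settings.

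ADAMTS proteases that cut aggrecan, versican and related proteoglycans were lower in 5 of 7 cases and higher in 0, the latter also with DESeq2, limma voom and an unadjusted p below 0.05. The shares over all genes were 21.2% lower and 19.6% higher, so 0 higher among 7 genes says little. ADAMTS9, which cleaves versican, had summer levels of 4.44 to 5.30 log2 CPM (median 4.72) and winter levels of 1.88 to 3.57 (median 2.69). It fell in 6 of 6 bears without overlap (log2FC −2.12 ± 0.16, FC = 0.230, adjusted p = 1.53e-05). ADAMTS1, ADAMTS4, ADAMTS5 and ADAMTS15 were lower too, with log2FC of −0.99, −1.64, −1.22 and −0.98. ADAMTS5, the main aggrecanase of cartilage, had 210 to 481 reads in summer and 75 to 251 in winter, and was slightly higher in winter in bear 1511 alone.

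ADAMTS8 varied most between bears among these, from 83 to 2397 reads in summer and from 25 to 838 in winter. Its count went from 2397 to 140 in bear 1512 and from 965 to 838 in bear 1511, and it did not pass (log2FC −1.51 ± 0.63, adjusted p = 0.0769). It passed without bear 1511 (log2FC −2.02, adjusted p = 0.0353), with limma voom (0.0445), with library totals (0.0452) and without the read filter (0.0348). Without bear 1512 the log2FC was −0.90 (adjusted p = 0.189), without bear 1316 it was −1.05 (0.222), and adjusted p over all settings ranged from 0.0348 to 0.275. ADAMTS20 did not pass (log2FC 0.23, adjusted p = 0.471).

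ADAMTS12, which cleaves the cartilage oligomeric matrix protein COMP, had 3.63 to 4.90 log2 CPM in summer (median 4.35) and 0.82 to 3.01 in winter (median 1.89). The seasons did not overlap (log2FC −2.32 ± 0.24, FC = 0.201, adjusted p = 7.75e-05). ADAMTS17, a protease linked to fibrillin microfibrils, was at 2.07 to 3.30 log2 CPM in summer (median 2.71) and −0.10 to 0.93 in winter (median 0.64). Again all bears fell without overlap (log2FC −2.26 ± 0.21, FC = 0.209, adjusted p = 3.71e-05). ADAMTS19, its closest relative in sequence, measured 1.16 to 2.25 log2 CPM in summer (median 1.66) and 1.72 to 3.32 in winter (median 2.57). It rose in 6 of 6 bears with overlapping ranges (log2FC 0.83 ± 0.20, FC = 1.78, adjusted p = 0.00704).

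ADAMTS6, ADAMTS16 and ADAMTS18 were lower, with log2FC of −1.12, −2.58 and −2.27. ADAMTS16 had 15 to 56 reads a library in summer and 2 to 8 in winter, and ADAMTS18 had 4 to 30 and 0 to 4. Both passed the read limit only through their summer libraries, so their falls are no independent evidence. ADAMTS10 and ADAMTS13, the von Willebrand factor protease, did not pass, with log2FC of 0.23 and 0.25.

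ADAMTSL proteins share the matrix-binding modules of ADAMTS proteases but carry no protease domain, and several bind fibrillin. ADAMTSL4, which held 56.5% of the reads of its family and promotes microfibril formation, went from 5.84 to 7.04 log2 CPM in summer (median 6.39) to 4.43 to 5.77 in winter (median 5.11). It fell in 6 of 6 bears without overlap (log2FC −1.36 ± 0.22, FC = 0.390, adjusted p = 8.24e-04). ADAMTSL2, which binds fibrillin and a latent TGF-β binding protein, was at 0.28 to 2.01 log2 CPM in summer (median 0.81) and −0.80 to 0.15 in winter (median −0.50). Its seasons were separate (log2FC −1.51 ± 0.32, FC = 0.350, adjusted p = 0.00385). ADAMTSL3 ranged from 4.24 to 5.09 log2 CPM in summer (median 4.64) and from 2.95 to 4.28 in winter (median 3.47). It fell in every bear with a minimal overlap (log2FC −1.14 ± 0.15, FC = 0.453, adjusted p = 2.97e-04). ADAMTSL1 and ADAMTSL5 did not pass, with adjusted p of 0.355 and 0.986.

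Read ratios of an enzyme to an inhibitor or substrate were taken within each library, where scaling has no effect. Their absolute value depends on transcript length, so that the change between seasons is the quantity of interest. The 6 ratios were chosen with the changes of their genes known and largely restate them, so they are given as a description, with no test. The log2 ratio of MMP2 to TIMP2 went from −1.48 to −0.40 in summer (median −0.49) to −1.99 to −1.28 in winter (median −1.71). It was lower in 6 of 6 bears, by a mean of −1.02 ± 0.43 (SD).

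MMP14 to TIMP2 was also lower in 6 of 6 bears (mean −0.47 ± 0.36), although bear 1512 changed by −0.02 only. ADAMTS5 to TIMP3 was lower in 6 of 6 bears (mean −1.39 ± 0.50). ADAM17 to TIMP3 was lower in 6 of 6 bears (mean −0.58 ± 0.57, or −0.36 without bear 1511). ADAM10 to TIMP3 was lower in 5 of 6 bears (mean −0.34 ± 0.58, or −0.11 without bear 1511). Relative to its substrate transcript COL1A1, ADAMTS2 was higher in winter in 5 of 6 bears (mean 0.86 ± 0.72). COL1A1 itself fell by 5.17 on the log2 scale.

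**Figure D4:**
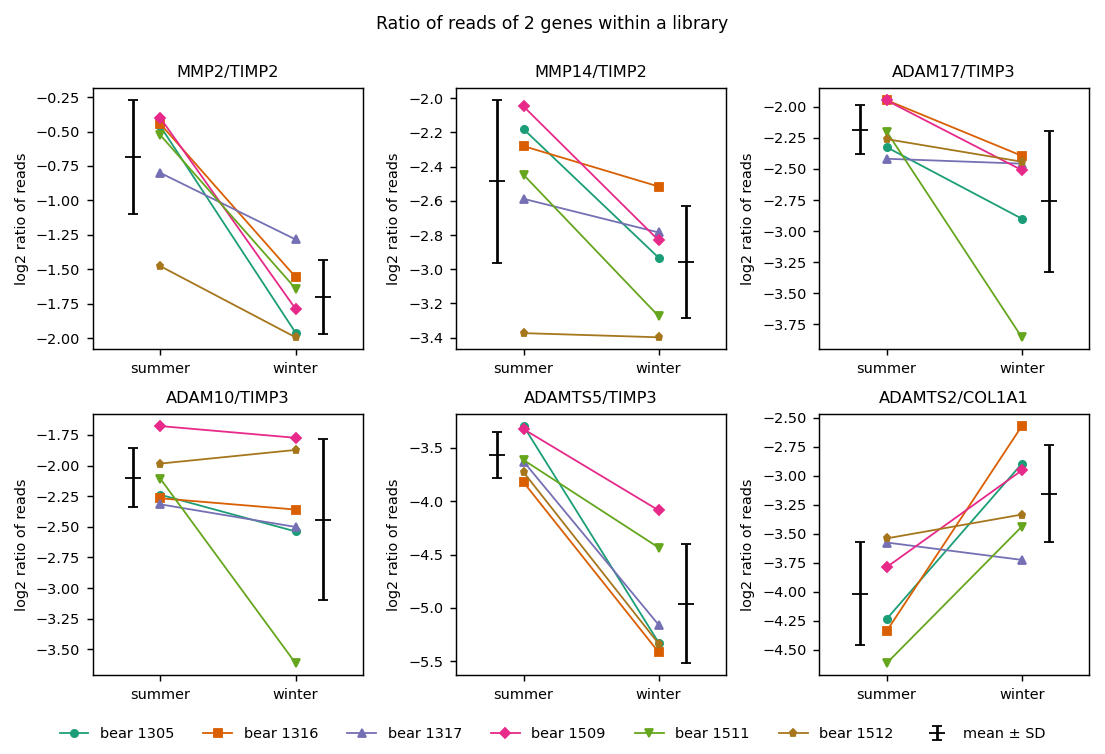
Log2 ratio of the reads of 2 genes within each library, with a line for each bear and the mean ± SD of 6 libraries beside each season; each panel has its own scale. The ratios to TIMP2 and the ADAM17 and ADAMTS5 ratios to TIMP3 are lower in winter in 6 of 6 bears, and the mean difference of ADAM10 to TIMP3 is −0.34 with and −0.11 without bear 1511.

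Genes that act with these families were listed by function, 47 in all. Of these 38 were tested, while A2M and TLL1 were not analysed here and the others had under 30 reads. In winter 18 of the 38 were lower and 1 was higher, with a median log2FC of −0.61, against 21.2% lower and 19.6% higher over all genes. Those shares are also the background for the counts of each list of partner genes and cell markers that follows. Of the convertases and the plasminogen system, which activate the precursors, 3 of 9 were lower, namely PCSK5 (log2FC −1.81), PCSK6 (−1.73) and the urokinase gene PLAU (−0.48; adjusted p = 0.130 without the replicate block). The convertase FURIN did not pass (log2FC 0.14, adjusted p = 0.516). RECK, a membrane-anchored MMP inhibitor, was lower (log2FC −1.28), as was LRP1, the receptor that clears MMPs and TIMPs from the matrix (−0.93).

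Tetraspanins and iRhoms escort ADAM10 and ADAM17 to the cell surface, and in this list of 8 genes TSPAN17 rose (log2FC 0.57 ± 0.10, adjusted p = 0.00136) and TSPAN14 fell (−0.55). Shed ligands of these enzymes were lower in 2 of 5 cases, DLL1 (log2FC −0.99) and CX3CL1 (−0.66). TNF had 53 reads in all and did not pass (adjusted p = 0.0735). On the C-terminal side of procollagen processing, the C-proteinase BMP1 (log2FC −2.44) and its enhancer PCOLCE (−2.74) were lower, and TLL2 and PCOLCE2 did not pass. Substrates and ligands of ADAMTS and ADAMTSL proteins were lower in 8 of 9 cases, including VCAN (log2FC −2.07), VWF (−1.26), COL1A1, COL1A2 (−4.13) and COL3A1 (−5.08). The calls of COMP and FBN1 in this list were lost without the replicate block (adjusted p = 0.518 and 0.0606).

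Of the 8 muscle fibre markers, ACTA1 (log2FC −0.91) and MB (−1.02) were lower, TTN (0.65) and NEB (0.51) were higher, and the others did not pass. Markers of the non-fibre cells that express many of these genes moved with season as well. Fibroblast markers were lower in 7 of 8 cases, with a sum of 699 to 1369 CPM in summer and 211 to 1084 CPM in winter. Smooth muscle and pericyte markers were lower in 4 of 7 cases (504 to 637 CPM and 281 to 358 CPM), macrophage markers in 5 of 7 (94.8 to 149 CPM and 40.0 to 78.9 CPM), and endothelial markers in 5 of 8 with 2 higher (649 to 975 CPM and 460 to 535 CPM). Satellite cell markers were lower in 3 of 3 cases, but in 1 of 3 with DESeq2 (4.43 to 9.44 CPM and 1.27 to 2.82 CPM), and tendon markers in 2 of 4 (2.19 to 99.4 CPM and 0.504 to 53.2 CPM). Without the replicate block the calls of both tendon markers, TNMD and MKX, were lost (adjusted p = 0.0865 and 0.240), as were those of the smooth muscle and pericyte markers TAGLN and PDGFRB (0.0525 and 0.0605) and of the fibroblast marker DCN (0.0848).

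Of the adipocyte markers (16.4 to 486 CPM and 8.27 to 183 CPM), 0 of 4 were called by edgeR and limma voom. As higher in winter, 1 was called by DESeq2 and 1 at an unadjusted edgeR p below 0.05, and 0 as lower. The latter was LEP (log2FC 2.54), which had 52 reads in all and 0 reads in 4 libraries. Neutrophil markers were near the floor (0.239 to 9.18 CPM and 1.14 to 5.76 CPM), with ELANE at 0 reads and MPO at 3 reads over all libraries, and 0 of 4 tested were called by edgeR, DESeq2, limma voom or at an unadjusted p below 0.05. The part of these cell types in the falls of the members was not tested.

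The size of the falls varied between bears. Over the 25 members called lower, the median difference between seasons was smallest in bear 1511 (−1.07) and largest in bear 1512 (−1.82). In the bears between these the median was −1.33 (1317), −1.45 (1509), −1.54 (1305) and −1.79 (1316). Bear 1509 had the smallest fall for 9 of these genes and the largest for 3, and bear 1511 the smallest for 6 and the largest for 2. The fibroblast marker sum changed by −0.16 on the log2 scale in bear 1511 and by −0.73 in bear 1509, against −1.77 to −1.51 in the other 4 bears, and the part of this difference in the falls was not tested. Members that rose did so by a median of 0.85 to 1.38 in each bear.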

How the data were processed

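The authors extracted RNA from muscle biopsies, prepared stranded poly(A) libraries and deposited raw counts of reads per gene. Per the labels and the study's methods, reads were aligned with TopHat2 (version 2.1.1) to the ASM358476v1 brown bear assembly and counted by strand with featureCounts (version 1.6.2). The labels do not assign libraries to sequencing lanes, so a lane effect was not tested. Libraries held 16742406 to 32140160 counted reads, and precision was lowest for members with few reads.

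Genes with at least 30 reads over the 12 libraries were kept (17290 of 30249). Counts were normalised by TMM and fitted with edgeR (version 4.0.16, R 4.3.3) as quasi-likelihood models with season and bear as terms. The bear number in the sample names gave the pairs, since each animal was sampled in both seasons; after centring on each season, the libraries of 1 bear correlated at 0.0903 to 0.344 and those of different bears at a median of −0.0634 and up to 0.142. A call was a Benjamini-Hochberg adjusted p below 0.05 over all genes. Levels are log2 CPM with a prior count of 2, scaled by the TMM factors. The standard error (SE) of a log2 fold change was derived from the test. It is the absolute log2 fold change divided by the square root of the quasi-likelihood F statistic. Ratios used reads plus 0.5. DESeq2 (1.42.0), limma voom (3.58.1), other normalisations, filters, a stricter threshold, a fit without bear and leaving out each bear were the alternatives.

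Full values were given for MMP2, MMP14, the TIMPs, ADAM10, ADAM17, in each family up to 4 called members with the largest rise and up to 4 with the largest fall at a mean of at least 0 log2 CPM, and the member with most reads. Other values serve as short mentions, and the genes shown among them were chosen after their values were seen. The members and all gene lists were chosen with earlier results of these data known. Symbols were checked against RefSeq names of the UrsArc2.0 assembly (55 of 55 matched). That assembly differs from the one used for counting, so no coordinates are given. The fit was also run on simulated counts with far fewer changed genes than were called here. That run does not show how the fit behaves at the share called in these data.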

Additional observations from a re-analysis of the deposited data

Results flagged for a closer look

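Of 110 sets of 6 libraries (55 members in each season), 5 held a library set far apart from the others by Dixon's test, and chance gives about 1 in 20. In winter, TIMP3 in bear 1511 was high at 8.36 log2 CPM (5441 reads), against 7.08 to 7.45 in the other bears. In summer, bear 1316 was low for ADAM10 at 4.89 log2 CPM (others 5.19 to 5.34) and for ADAM9 at 4.30 (others 5.14 to 5.55). The summer library of bear 1509 was low for MMP12 at −1.34 log2 CPM, from 7 reads (others 0.41 to 1.21), and for MMP13 at −3.53, from 0 reads (others −2.59 to −2.10). No cause was tested for any of them.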

How the results depend on the processing

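Over the alternatives the members called higher numbered 5 to 8 and those called lower 23 to 26, with a median log2FC of −0.43 to −0.27. Without the replicate block 1 TIMP was lower (2 with it) and 1 ADAM was higher (2 with it; also 1 with DESeq2 and no block), and the block changed no call of the other members (24 lower and 6 higher). With an adjusted p below 0.01 and fold limits of 1.3 and 0.77, calls over all genes were 2115 higher and 2325 lower. At these limits 1 MMP and 1 ADAM were higher, and 1 TIMP and 10 ADAMTS were lower, with ADAMTS18 no longer called. Leaving out each bear gave 1 to 2 MMP higher (1 without 1305, 1317 or 1511), 1 to 2 ADAM higher (1 without 1305, 1316, 1317 or 1512) and 1 to 2 partner genes higher (2 without 1305 or 1509). ADAM19, not called, changed sign without the block (0.043), with DESeq2 and no block (0.050) and without bears 1509 or 1512 (range −0.26 to 0.066), and TIMP3, not called, without bear 1511 (range −0.0090 to 0.25). ADAM15, ADAMTS13, ADAMTS20, ADAMTSL5, MMP9, MMP12 and MMP27, also not called, changed sign under some alternative as well. The causes were not tested, beyond the smaller number of bears or the stricter limits. Of the 6 ratios, none changed its direction with another added count, on the TMM log2 CPM scale or without any 1 bear. The 4 matching genes with 5 to 22 reads stayed uncalled when the filter was dropped. Members with few reads, such as MMP13, ADAM32 and MMP9, allow no firm statement at this depth.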
